A study of Mus musculus with 23 samples.

Results

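The replication-dependent histone genes were followed through 23 mouse RNA libraries made from small amounts of material. The genes were taken by symbol, as every entry of the deposited count table that begins with Hist1h, Hist2h, Hist3h or Hist4h, without use of their values. This gave 67 of the 22488 genes in the table. They comprised 6 linker histone (H1) genes, 18 H2a, 18 H2b, 12 H3 and 13 H4 genes. On the mouse genome 54 lay on chromosome 13, 10 on chromosome 3, 2 on chromosome 11 and 1 on chromosome 6.

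The libraries came from splenic CD3+ T cells at 100, 500, 1000 and 10000 cells (3 libraries each) and from diluted RNA at 0.1 ng (2 libraries) and at 0.5, 1 and 5 ng (3 libraries each). The T cells are labelled as coming from mice of strain C57 aged 6 to 18 weeks, with no mutant allele or treatment given. The series design describes the diluted RNA as spleen RNA, whereas its sample labels name RAW 264.7, a mouse macrophage line. The labels of the RNA also give an age of 6 to 18 weeks. No label says whether the replicates of a group were separate animals, sorts or dilutions, so the p-values below may measure technical spread alone. In all libraries cDNA was primed with oligo-dT and cut with the transposase Tn5, a protocol called EASY-RNAseq, and the series was designed to test how little input that protocol needs.

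Replication-dependent histone genes supply the core histones H2A, H2B, H3 and H4, which wrap DNA into nucleosomes, and the linker histone H1, which binds the DNA entering and leaving the nucleosome. Most lie in clusters, have no introns and are transcribed mainly in S phase, when new chromatin is packaged. Their mRNAs normally end just after a conserved stem-loop that is bound by stem-loop binding protein (Slbp) and carry no poly(A) tail, although polyadenylated forms of some of them are made, especially in differentiated cells. Oligo-dT priming favours the polyadenylated forms, so the levels below are those of cDNA made in that way, not of total histone mRNA.

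The stem-loop, which marks the normal end of the mRNA, was found in the annotated transcripts of 46 of the 67 genes (GENCODE release M21 on GRCm38). It was searched as 6 base pairs closing a loop of 4 bases. The sequences of 4 genes whose values are described below are shown because they carry 3 of the common forms and differ in how far the annotated transcript continues beyond the loop. Capitals mark the 6 paired bases, the loop and the 6 bases that pair back.
Hist1h1c: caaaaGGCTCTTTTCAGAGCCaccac
Hist1h4d: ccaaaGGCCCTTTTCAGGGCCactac
Hist1h4f: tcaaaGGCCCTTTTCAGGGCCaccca
Hist1h3c: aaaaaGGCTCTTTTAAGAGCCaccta
The form of Hist1h1c, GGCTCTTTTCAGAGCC, was present in 26 of the 46 genes. The form shared by Hist1h4d and Hist1h4f, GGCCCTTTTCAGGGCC, was present in 7, all of them H4 genes. The form of Hist1h3c, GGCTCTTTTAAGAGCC, was present in 6. The annotated transcript continued for 840 bases past the loop in Hist1h1c and 770 in Hist1h4d, but for only 33 in Hist1h4f and 74 in Hist1h3c.

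The promoters also differed by class. RefSeq gave a window from 250 bases before to 50 bases after the start (GRCm38.p6) for 62 of the 67 genes. One promoter each of a linker histone, an H2A and an H4 gene is shown, with every match to 4 motifs, searched on either strand, in capitals. The motifs were CCAAT (the CCAAT box), TATAA (the core of the TATA box), AAACACA (the H1 box of linker histone promoters) and the octamer ATTTGCAT. Hist1h1c lies at chr13:23738557-23738856 on the + strand, Hist1h2ae at chr13:23571171-23571470 on the - strand and Hist1h4f at chr13:23551619-23551918 on the - strand, and each is written along its own strand.
Hist1h1c: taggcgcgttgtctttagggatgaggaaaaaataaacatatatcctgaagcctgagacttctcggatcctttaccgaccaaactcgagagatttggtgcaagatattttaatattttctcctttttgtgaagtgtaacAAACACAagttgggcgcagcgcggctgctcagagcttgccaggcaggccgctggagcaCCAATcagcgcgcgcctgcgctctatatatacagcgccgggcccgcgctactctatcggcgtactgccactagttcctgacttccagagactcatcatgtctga
Hist1h2ae: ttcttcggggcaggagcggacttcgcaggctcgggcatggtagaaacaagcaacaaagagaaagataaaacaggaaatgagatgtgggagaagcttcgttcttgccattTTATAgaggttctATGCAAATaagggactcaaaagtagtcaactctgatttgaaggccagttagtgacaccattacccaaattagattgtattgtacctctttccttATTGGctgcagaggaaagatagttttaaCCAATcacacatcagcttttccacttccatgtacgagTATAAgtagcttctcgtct
Hist1h4f: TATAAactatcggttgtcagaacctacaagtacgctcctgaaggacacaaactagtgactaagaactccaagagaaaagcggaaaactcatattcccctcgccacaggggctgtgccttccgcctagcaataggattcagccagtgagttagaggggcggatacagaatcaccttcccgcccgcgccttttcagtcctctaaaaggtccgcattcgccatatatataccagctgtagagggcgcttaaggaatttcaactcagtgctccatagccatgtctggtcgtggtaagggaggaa
CCAAT, on either strand, occurred in 53 of the 62 histone promoters and in 37.9% of all 27025 RefSeq promoters of this length. It was in every matched H1, H2a, H2b and H3 promoter but in only 3 of 12 H4 promoters. TATAA occurred in 49 of 62 (25.5% of all promoters), and AAACACA in 9 of 62 (7.14%), including 5 of 6 H1 promoters. The octamer ATTTGCAT occurred in 13 of 62 (1.75%), which were 7 of 18 H2a and 6 of 16 H2b promoters. A promoter counts once however many matches it holds, matches may overlap (TTATAA holds TATAA on both strands), and a match describes letters only.

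The material was checked against defining markers. T cell markers (8 genes, including Cd3d, Cd4 and Cd8a) made up 0.547% of counts in the 10000-cell libraries and 0.132% in the 5 ng RNA libraries. In the 10000-cell libraries B cell markers made up 0.123%, erythroid markers 0.00688%, neutrophil markers 0.00478% and macrophage markers 0.0100%. In the 5 ng RNA libraries B cell markers made up 3.62%, erythroid markers 0.45%, neutrophil markers 0.502% and macrophage markers 0.312%. The RNA thus held markers of all 5 cell types, which the name of a single macrophage line does not cover. Replicate 3 at 100 cells stood apart from the other T cell libraries, with B cell markers at 1.40% of counts, against 0.0918% in the lowest 100-cell library, and with more erythroid, neutrophil and macrophage marker counts. Totals ran from 1737067 to 7908638 counts per library, of which 303 to 2473 fell on histone genes. A floor of 3 counts then corresponds to between 0.379 and 1.73 CPM (counts scaled to a common library total), so the lowest genes are near the limit of detection.

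Between 27 and 58 of the 67 histone genes had a count in a library, and 5 had none anywhere. These 5 were Hist2h2aa1, Hist2h2aa2, Hist2h2bb, Hist2h3b and Hist2h3c1, all on chromosome 3. They were also the 5 genes of which every 50-base stretch of the annotated exons recurs in another annotated gene, whether a near-identical copy elsewhere or a predicted gene that overlaps them. The 29 genes with most, but not all, of these stretches shared had a median of 1.34 CPM in 5 ng RNA and reached at most 7.02 CPM. The 29 genes with some, but not most, shared had a median of 5.77 CPM and reached 67.4 CPM. The 4 genes with no shared stretch (Hist2h2be, Hist1h1b, Hist1h1t and Hist1h1a) had a median of 8.0 CPM. The median share ran from 1.13% in H1 to 73.0% in H2a genes. The values of single H2a, H2b, H3 and H4 genes with close copies are therefore uncertain, because reads that match several copies can be dropped or split in counting.

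A few genes carried a large share of the histone counts. Hist1h1c, a somatic linker histone gene, averaged 52.3 CPM over the 23 libraries and supplied 8.25% to 32.2% of the histone counts of a T cell library and 19.7% to 34.9% of those of an RNA library. Hist1h1d (12.3 CPM) and Hist1h1e (11.1 CPM), also linker histones, came next, followed by the H4 gene Hist1h4d (10.9 CPM) and the H2B gene Hist2h2be (10.2 CPM). These 5 genes held 34.3% to 54.6% of histone counts in T cell libraries and 32.8% to 49.5% in RNA libraries. Among H2a genes Hist3h2a (9.13 CPM), Hist1h2ae (6.89 CPM) and Hist1h2ac (3.67 CPM) led, and among H2b genes Hist1h2be (9.12 CPM) and Hist1h2bc (5.86 CPM) followed Hist2h2be. Hist2h4 (7.31 CPM) and Hist4h4 (5.20 CPM) followed among H4 genes, while the leading H3 genes Hist1h3c, Hist1h3d and Hist1h3i averaged only 3.47, 3.07 and 2.86 CPM. Per kilobase of annotated exon, Hist1h1c was first in both materials, at 17.0 CPM per kb in 10000 T cells and 43.2 CPM per kb in 5 ng RNA. It was followed in T cells by Hist1h4d (7.14 CPM per kb) and Hist1h4m (5.41 CPM per kb), and in RNA by Hist1h4f (20.9 CPM per kb), Hist1h2bn (18.4 CPM per kb) and Hist1h2ae (17.2 CPM per kb). Hist1h1t, the testis linker histone gene, stayed at or below 2.16 CPM in every library.

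**Figure D1:**
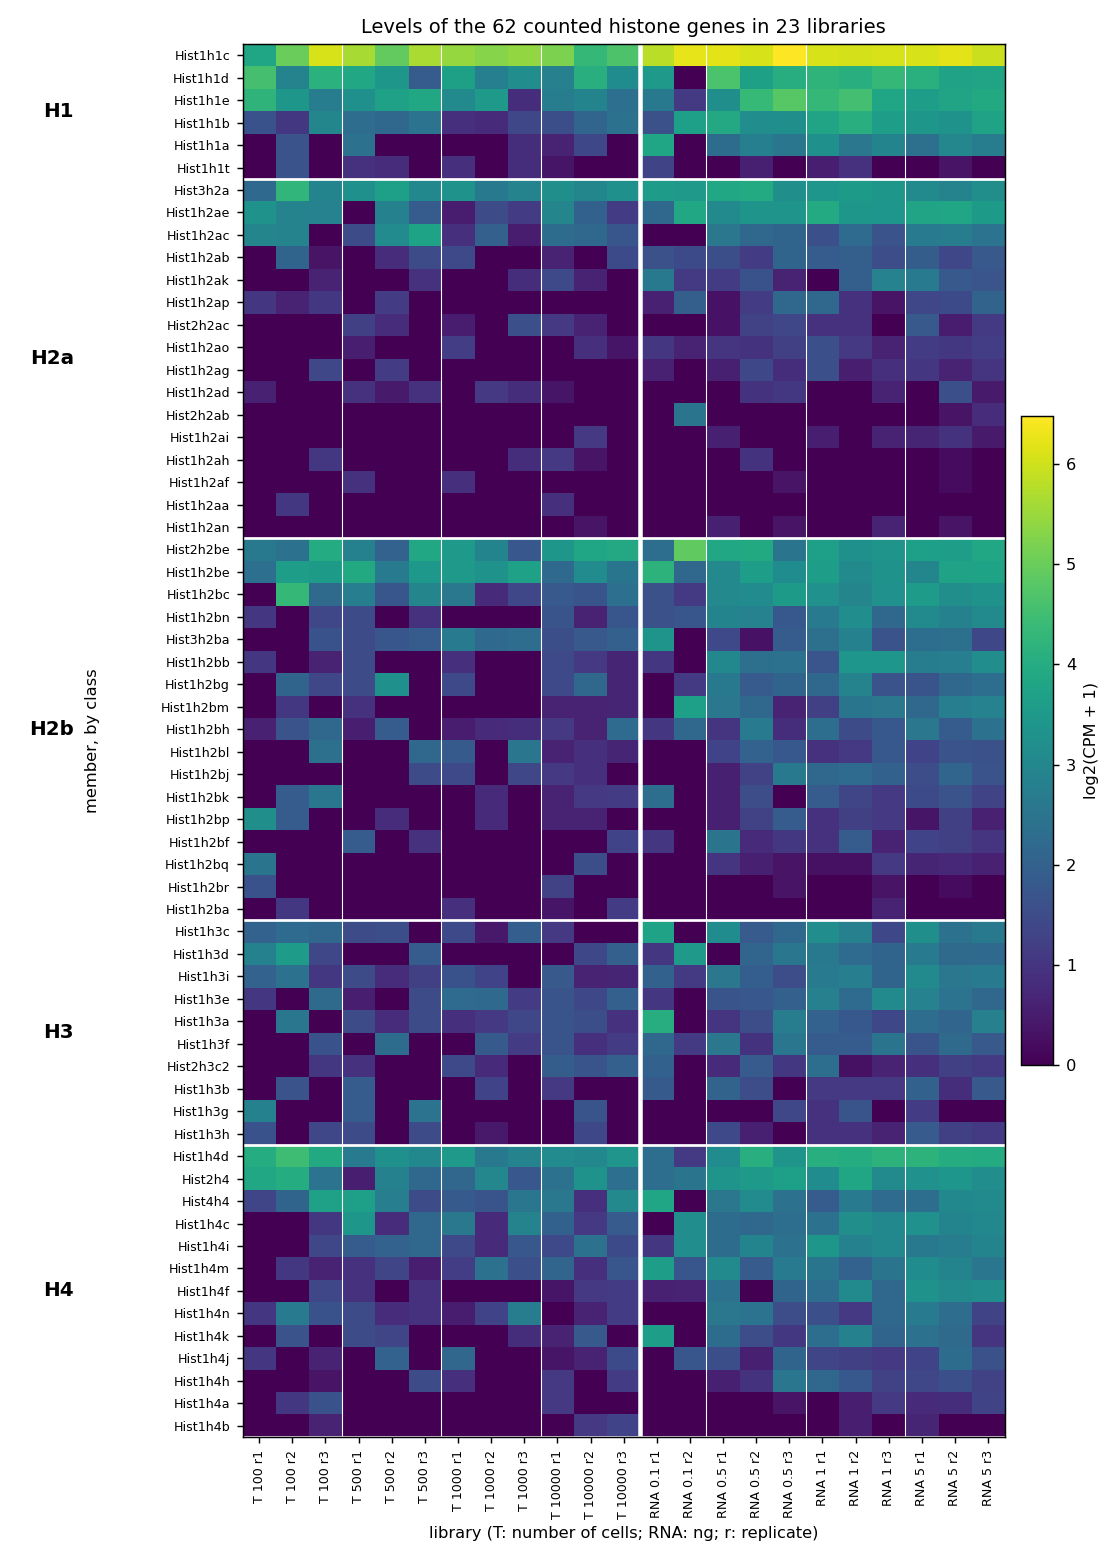
Level of each of the 62 counted histone genes (rows, grouped by class) in each of the 23 libraries (columns, T cells left and RNA right), as log2(CPM + 1). Hist1h1c is high in all libraries, and most other genes reach a visible level in few T cell libraries but in most of the 0.5, 1 and 5 ng libraries.

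The first comparison set T cells against RNA, at the same rank of input. At the largest inputs, histone genes together stood at 147, 143 and 139 CPM in the 10000-cell libraries and at 329.9, 324 and 313 CPM in the 5 ng libraries. The groups did not overlap, and the T cell mean of 143 ± 3.98 CPM was 0.444 times the RNA mean of 322 ± 8.73 CPM (SD, n = 3 each). All classes were lower in every T cell library. H1 genes summed to 46.0 ± 4.55 CPM in T cells, against 110 ± 4.57 CPM in RNA, H3 genes to 12.8 ± 1.38 CPM in T cells, against 33.6 ± 7.01 CPM in RNA, and H4 genes to 30.7 ± 3.21 CPM in T cells, against 70.6 ± 5.29 CPM in RNA. The ratios of T cells to RNA were 0.418 for H1, 0.381 for H3 and 0.435 for H4. H2a genes summed to 18.6 ± 5.37 CPM in T cells, against 37.8 ± 2.36 CPM in RNA (ratio 0.492), and H2b genes to 35.0 ± 4.74 CPM in T cells, against 70.2 ± 4.92 CPM in RNA (ratio 0.499). In bulk samples such as these, fewer cycling cells and less histone RNA per cell cannot be told apart. The kinds of cell and the form of input (cells or diluted RNA) also changed together, so their parts cannot be told apart either.

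The difference held at 1000 cells against 1 ng, where the sums were 136 ± 17.6 CPM in T cells, against 316 ± 16.9 CPM in RNA (ratio 0.432). It held too at 500 cells against 0.5 ng, with 168 ± 16.5 CPM in T cells, against 298 ± 8.96 CPM in RNA (ratio 0.565). In both pairs every class was lower in every T cell library. At 100 cells against 0.1 ng the libraries overlapped in every class, with 158, 211 and 217 CPM in T cells, against 239 and 214 CPM in RNA (ratio 0.862). Replicate 3 at 100 cells, which held more markers of other cells, decided the overlap of the sum and of H1 genes: without it both T cell sums lay below both RNA sums, and H1 genes stood at 55.6 and 52.5 CPM in T cells, against 87.1 and 87.5 CPM in RNA. The T cell libraries as a whole ran from 122 to 217 CPM and the RNA libraries from 214 to 330 CPM.

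**Figure D2:**
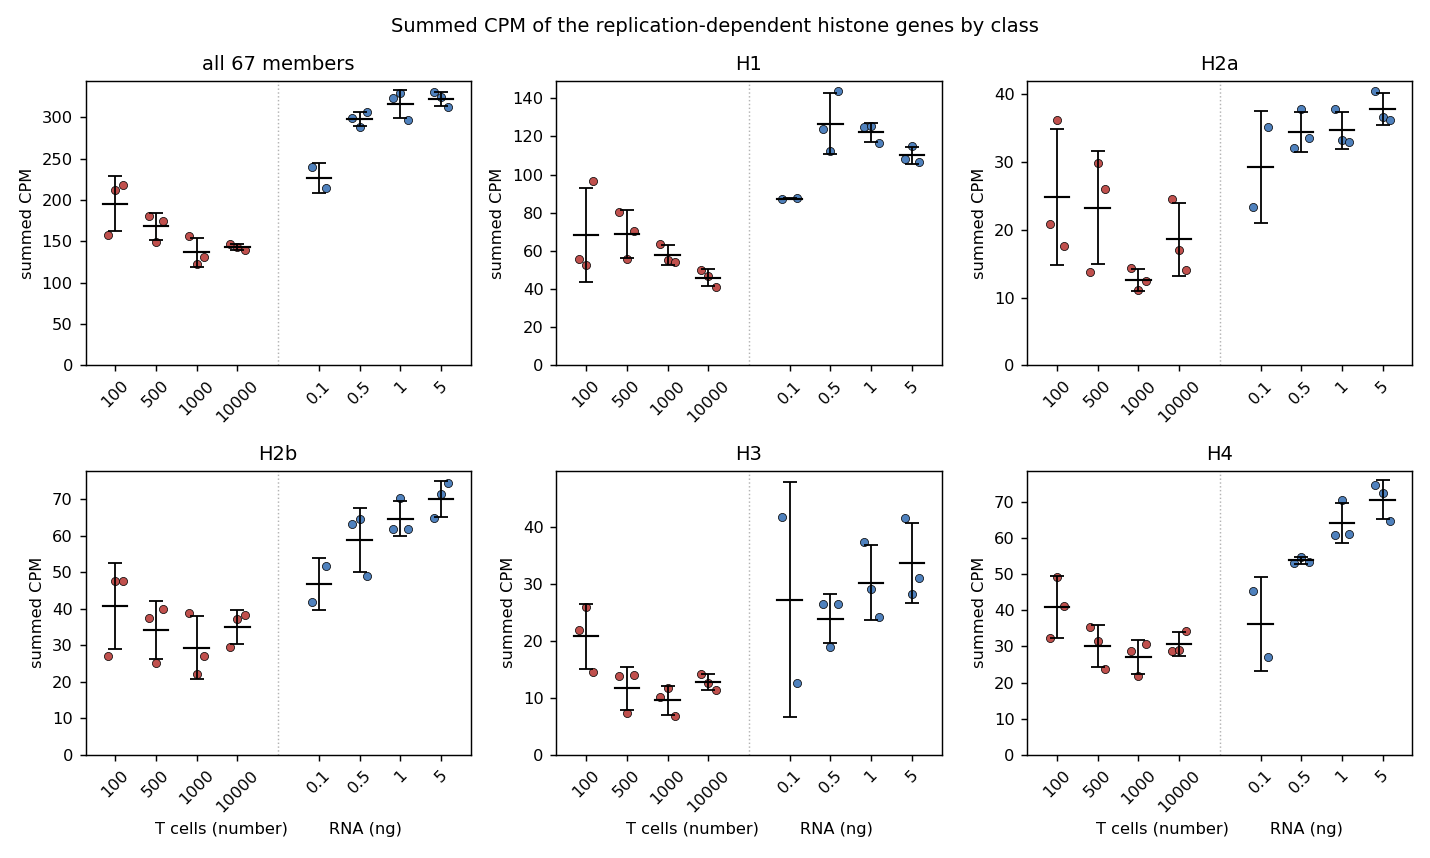
Summed CPM of the 67 histone genes and of each class (panels) by group, with 1 point per library and the group mean ± SD. The T cell groups (left, by cell number) lie below the RNA groups (right, by ng) at all but the smallest inputs, where the 100-cell and 0.1 ng libraries overlap.

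Gene by gene, 33 of the 67 histone genes passed edgeR's filter on low counts for 10000 T cells against 5 ng RNA. Of these 21 were lower in T cells and 0 higher by its quasi-likelihood test at an adjusted p under 0.05, against 27.3% of all 14425 genes tested that were lower. Their median log2 fold change was -1.46, against 0.03 for all genes tested. Of the 33, 21 lay lower in every T cell library than in any RNA library, as did 25.1% of all genes tested. The count must be read with the filter, since 19 of the 33 genes passed it only through their RNA level, and 14 of those 19 were called. Of the 13 whose T cell libraries passed alone, 6 were lower and 7 were not called. Without the filter 28 of 62 genes were lower, where 21.3% of all genes were. The count was 3 when all 8 groups were fitted together with 1 shared estimate of the spread.

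Hist1h1c had the smallest adjusted p of the 33 genes. Hist1h1c stood at 35.7, 19.0 and 24.7 CPM in 10000 T cells and at 66.9, 73.7 and 61.5 CPM in 5 ng RNA. The groups did not overlap, and Hist1h1c fell by 1.46 on the log2 scale (SE 0.154, adjusted p = 1.89e-12, edgeR). Hist1h1e, at 5.58, 6.62 and 4.12 CPM in T cells, against 11.3, 12.8 and 14.3 CPM in RNA, also fell without overlap (log2 fold change -1.34, SE 0.317, adjusted p = 0.000256, edgeR). Hist1h1b stood at 1.95, 3.31 and 4.41 CPM in T cells, against 9.79, 9.08 and 12.4 CPM in RNA, and was lower by a log2 fold change of -1.80 (adjusted p = 5.65e-05, edgeR). Hist1h1a, at 0.558, 1.65 and 0 CPM in T cells, against 4.24, 6.94 and 5.56 CPM in RNA, had no count in 1 T cell library and was below all RNA libraries in the others (log2 fold change -2.97, SE 0.642, adjusted p = 7.07e-05, edgeR). Hist1h1d did not pass, with 6.13, 15.99 and 7.94 CPM in T cells, against 16.2, 12.4 and 12.8 CPM in RNA. One T cell library of the 3 reached the RNA level of Hist1h1d (log2 fold change -0.56, adjusted p = 0.0901, edgeR). Thus 4 of the 5 tested H1 genes were lower, where 27.3% of all genes tested were.

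The largest fitted differences were mostly those of core histone genes. The 7 core genes named here, and Hist1h1a above, did not pass the filter on their T cell libraries alone, so they were tested because they are high in RNA. Hist1h3c, an H3 gene, stood at 1.12, 0 and 0 CPM in 10000 T cells and at 8.33, 4.40 and 5.18 CPM in 5 ng RNA. It rested on 4 counts in T cells against 131 in RNA, with a log2 fold change of -4.01 (SE 0.727, adjusted p = 3.48e-06, edgeR). Hist1h4f, an H4 gene, stood at 0.279, 1.10 and 1.18 CPM in T cells, against 8.92, 7.47 and 8.09 CPM in RNA. All 3 T cell libraries were far below the RNA libraries (log2 fold change -3.34, SE 0.539, adjusted p = 3.11e-07, edgeR). The H2B gene Hist1h2bm stood at 0.558, 0.551 and 0.588 CPM in T cells, against 3.51, 5.87 and 6.32 CPM in RNA (log2 fold change -3.27, adjusted p = 2.33e-05, edgeR). Its relative Hist1h2bb stood at 1.67, 1.10 and 0.588 CPM in T cells, against 5.70, 5.87 and 7.97 CPM in RNA (log2 fold change -2.62, adjusted p = 3.71e-05, edgeR). Neither H2B gene overlapped between the groups. Hist1h3i (H3), Hist1h2ak (H2A) and Hist1h2bn (H2B) followed, with log2 fold changes of -2.37, -2.23 and -2.14, and their groups did not overlap either. With all 8 groups in 1 fit Hist1h3c kept its call (adjusted p = 0.0246, edgeR), while Hist1h4f, Hist1h2bm, Hist1h2bb, Hist1h3i, Hist1h2ak, Hist1h2bn and the linker histone Hist1h1a lost theirs (adjusted p from 0.0502 to 0.305). Hist1h2ak also lost its call without T cell replicate 3 (adjusted p = 0.0587, edgeR). By class, 2 of 4 tested H2a, 5 of 9 H2b, 4 of 7 H3 and 6 of 8 H4 genes were lower, where 27.3% of all genes tested were. These counts depend in part on which genes passed the filter only through their RNA level.

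Some genes did not follow. Hist2h2be, an H2B gene, stood at 9.76, 13.2 and 14.1 CPM in T cells, against 11.5, 11.3 and 13.5 CPM in RNA, so the groups overlapped (log2 fold change -0.09, SE 0.268, adjusted p = 0.804, edgeR). Hist3h2a, an H2A gene, stood at 8.37, 6.89 and 8.52 CPM in T cells, against 7.60, 6.41 and 8.22 CPM in RNA, and overlapped as well (log2 fold change -0.02, SE 0.345, adjusted p = 0.974, edgeR). These SEs leave room for a difference in either direction. The H4 genes Hist2h4 and Hist4h4 had log2 fold changes of -0.70 and -0.63 and did not pass. Hist2h3c2, an H3 gene, was the sole tested gene with a positive value, at 2.79, 2.21 and 2.94 CPM in T cells, against 0.877, 1.33 and 1.14 CPM in RNA. Its libraries did not overlap, but the log2 fold change of 1.11 (SE 0.643) did not pass (adjusted p = 0.138, edgeR). Hist2h3c2 passed the filter, 1.91 CPM at these inputs, only through its T cell level. Its sign and lack of overlap are thus fixed in part by that level. Of its 50-base stretches 63.5% recur in other genes.

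**Figure D3:**
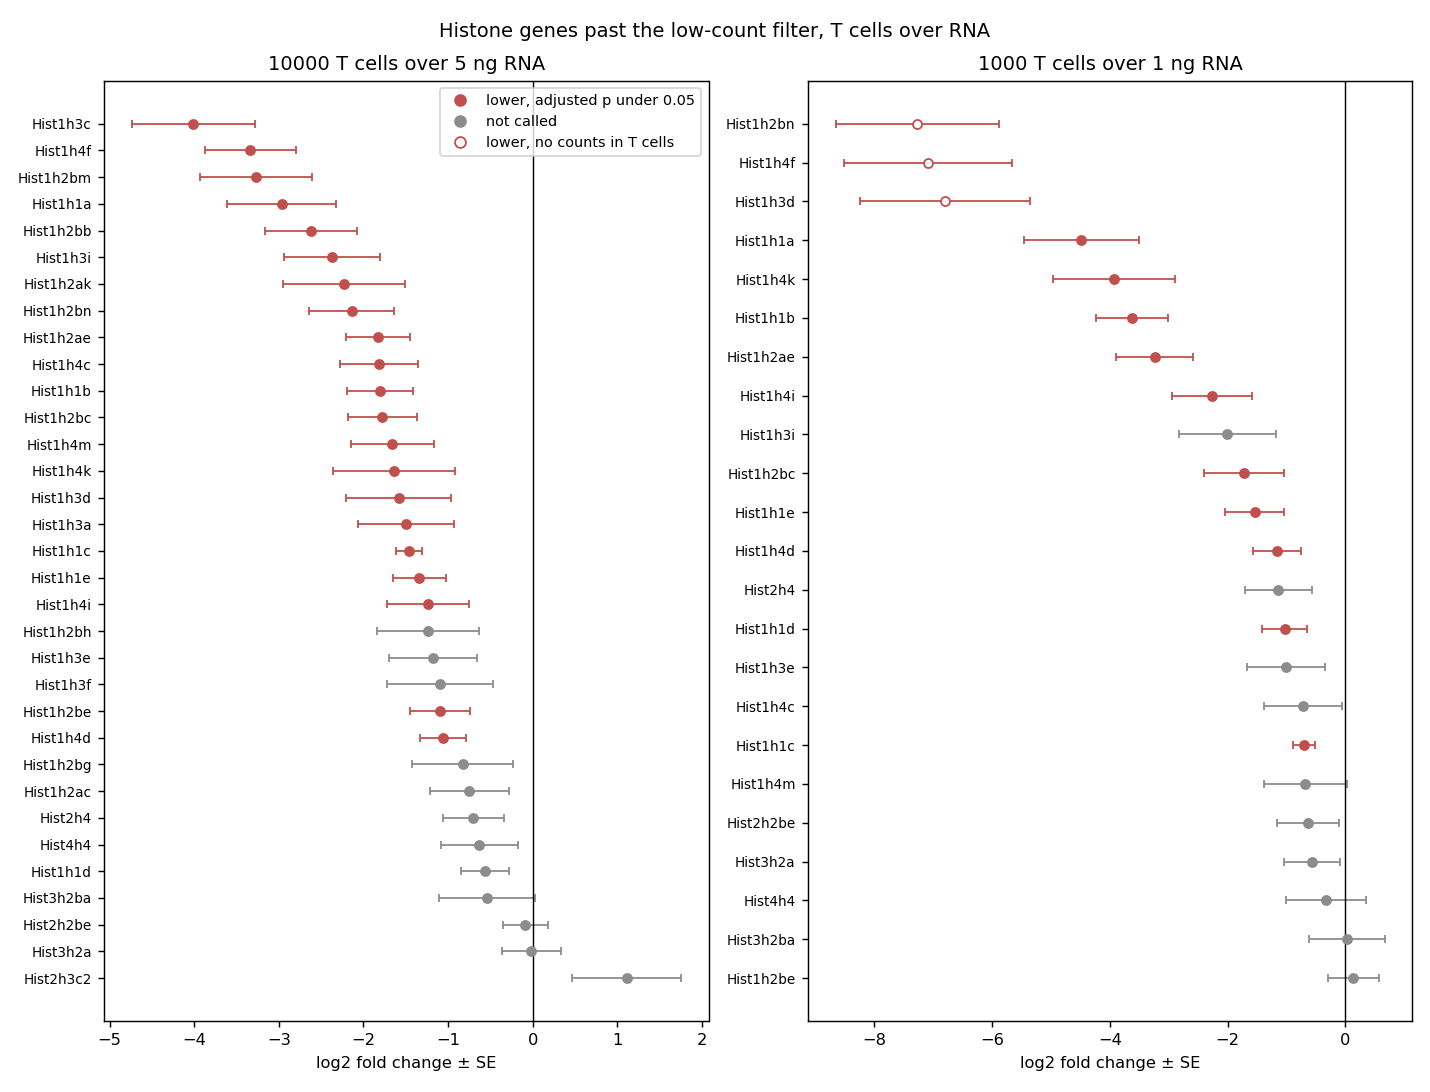
Log2 fold change ± SE (edgeR) of each tested histone gene for T cells against RNA, with the 33 genes of 10000 cells against 5 ng and the 23 genes of 1000 cells against 1 ng in separate panels. Red points passed an adjusted p of 0.05, grey ones did not, and open points had no counts in T cells, so that their position is no measured fold. All red points lie left of 0, and Hist2h3c2 lies farthest to the right among 10000 cells against 5 ng.

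The calls were unevenly placed on the genome, a split made after the values were seen and given with no test. On chromosome 13, which holds the large Hist1 cluster, 21 of 27 tested genes were lower (median log2 fold change -1.64). All 14 called genes that passed the filter only through their RNA level lie here. The count of 21 and the median are thus fixed in part by that level. Of all genes tested 27.3% were lower. On the other chromosomes 0 of 6 were lower, with log2 fold changes from -0.70 to 1.11. Of the 13 genes whose T cell libraries passed the filter alone, the 6 called were all on chromosome 13. The 6 elsewhere were Hist2h2be, Hist2h3c2, Hist2h4, Hist4h4, Hist3h2a and the H2B gene Hist3h2ba. All of these but Hist4h4 passed the filter on T cell libraries alone, and Hist2h3c2 passed only through its T cell level. The 54 genes on chromosome 13 summed to 107 ± 7.23 CPM in 10000 T cells and to 281 ± 10.1 CPM in 5 ng RNA (SD, n = 3 each, ratio 0.380), lower in every T cell library. The 13 elsewhere summed to 36.1 ± 3.40 CPM in 10000 T cells and to 40.7 ± 1.39 CPM in 5 ng RNA (ratio 0.888), and the libraries overlapped. At 1000 cells against 1 ng, 13 of 18 tested genes on chromosome 13 and 0 of 5 elsewhere were lower. Of all genes tested 20% were lower, and 10 of the 13 called histone genes passed the filter only through their RNA level. The sums had ratios of 0.397 on chromosome 13 and 0.674 elsewhere, both lower in every T cell library. At 500 cells against 0.5 ng the ratios were 0.543 on chromosome 13 and 0.691 elsewhere, again lower in every T cell library. At 100 cells against 0.1 ng they were 0.887 on chromosome 13, where the libraries overlapped, and 0.764 elsewhere, so the order of the places turned at the smallest inputs.

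Smaller inputs gave fewer calls. At 1000 cells against 1 ng, 13 of 23 tested histone genes were lower and 0 higher (edgeR), where 20% of 12656 genes tested were lower. Of the 23, 15 passed the filter only through their RNA level, and 10 of those 15 were called, while of the 6 whose T cell libraries passed alone 3 were lower. In every T cell library 16 of the 23 were below all RNA libraries, as were 24.2% of all genes tested. All 5 tested H1 genes were lower, among them Hist1h1c, with 42.7, 38.3 and 42.4 CPM in T cells, against 66.5, 66.1 and 66.6 CPM in RNA. The libraries were tight and separate, with a log2 fold change of -0.70 (SE 0.182, adjusted p = 0.00304, edgeR). Hist1h1b and the H2A gene Hist1h2ae had log2 fold changes of -3.62 and -3.24, and the H4 gene Hist1h4i one of -2.26. Hist1h2bn, Hist1h4f and Hist1h3d had 0 counts in the 1000-cell libraries, against 73, 64 and 52 counts in the 1 ng libraries. Taking 3 counts over the group as the floor, Hist1h2bn was at least 14.6-fold lower, Hist1h4f at least 12.8-fold lower and Hist1h3d at least 10.4-fold lower. Hist1h1a had 2 counts against 84, a ratio of RNA to T cells of 25.3 (95% counting interval 6.78 to 212), and Hist1h4k had 2 against 58, a ratio of 17.4 (4.62 to 147). The count of calls was 8 with all 8 groups in 1 fit, 7 without RNA replicate 1 and 6 without RNA replicate 2 at 1 ng. Hist1h4i and Hist1h4k lost their calls with all 8 groups in 1 fit (adjusted p = 0.0606 and 0.0779, edgeR), and Hist1h4i also without RNA replicate 1 (0.0676).

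At 500 cells against 0.5 ng, 2 of 19 tested histone genes were lower (edgeR), where 18.1% of 13001 genes tested were, so the share of histone genes was below the background. Hist1h1c stood at 48.7, 29.5 and 49.5 CPM in T cells, against 73.8, 66.9 and 88.3 CPM in RNA, with no overlap (log2 fold change -0.86, SE 0.235, adjusted p = 0.00605, edgeR). Hist1h2bb stood at 1.79, 0 and 0 CPM in T cells, against 7.09, 4.26 and 4.32 CPM in RNA, again with no overlap (log2 fold change -3.10, SE 1.11, adjusted p = 0.0312, edgeR). Of the 19 genes, 11 passed the filter only through their RNA level, and Hist1h2bb was the 1 of those called. Its call and lack of overlap are thus fixed in part by that level. Of the 6 whose T cell libraries passed alone, 1 was lower, Hist1h1c. The call of Hist1h2bb was lost without T cell replicate 2 or 3 (adjusted p = 0.139 and 0.137, edgeR), without any 1 of the RNA replicates (0.12, 0.0655 and 0.0657) and with the replicate number as a block (0.0778). Without T cell replicate 1 the count was 4. In every T cell library 7 of the 19 were below all RNA libraries, as were 23% of all genes tested.

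At 100 cells against 0.1 ng, 0 of 13 tested histone genes passed (edgeR), as did 0.0535% of 13073 genes tested, and 0 had an unadjusted p under 0.05. Of all 13073 genes 2049 had such a p. DESeq2 gave the same count of 0. In every T cell library 0 of the 13 were below both RNA libraries, against 16.4% of all genes tested, and 2 were above both RNA libraries in every T cell library, against 21.1% of all genes tested. These 2 were Hist1h4d, with 15.1, 21.1 and 14.4 CPM in T cells, against 4.08 and 1.15 CPM in RNA, and Hist1h1e, with 17.7, 9.73 and 5.58 CPM in T cells, against 5.09 and 1.15 CPM in RNA. Both passed the filter, 5.20 CPM at these inputs, only through their T cell level. Their lack of overlap is thus fixed in part by that level. With 2 RNA libraries of few counts, this pair of groups can show only large differences. Fitting all 8 groups together gave 3 higher and 1 lower histone gene here. The share of all genes called in that fit is not given, so this count has no background beside it.

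Over the 4 pairs of inputs, Hist1h1c was the sole gene lower in 3. Another 12 were lower in 2, 9 in 1 and 45 in 0, the last including the 5 never counted and the genes that no filter passed. The pairs share no libraries. How many of all genes were lower in 3, 2 or 1 of the pairs was not counted. In the 3 larger pairs 27.3%, 20% and 18.1% of all genes tested were lower, so repeated calls are not particular to histone genes. Of the histone calls there, 14 of 21, 10 of 13 and 1 of 2 were of genes that passed the filter only through their RNA level.

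The genes were then split by where their annotated transcripts end, with a limit of 100 bases after the stem-loop that was chosen after the values were seen, so the split carries no test. In 23 genes, among them Hist1h1c, Hist1h1d, Hist1h1e, Hist1h4d and Hist2h4, the transcript runs on past the loop. In another 23, among them Hist1h4f, Hist1h3c and Hist1h2bb, it ends near the loop, and in 21, among them Hist2h2be and Hist1h1b, the annotated transcript holds no loop of this form. The first set supplied 69.2% to 85.7% of the histone counts of a T cell library (median 73.2%) and 60.3% to 70.8% of those of an RNA library (median 64.6%). The second supplied 6.75% to 13.5% in T cells (median 9.75%) and 9.14% to 21.7% in RNA (median 17.1%), and the third 7.53% to 21.5% in T cells (median 16.1%) and 12.3% to 23.7% in RNA (median 18.8%).

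At the largest inputs the summed level of the genes that run on was 101 ± 4.29 CPM in 10000 T cells and 200.3 ± 8.20 CPM in 5 ng RNA (SD, n = 3 each, ratio 0.503). Genes that end near the loop summed to 14.3 ± 1.21 CPM in T cells, against 59.6 ± 4.51 CPM in RNA (ratio 0.240), and genes with no loop to 28.0 ± 2.39 CPM in T cells, against 62.2 ± 3.86 CPM in RNA (ratio 0.449). All 3 sets were lower in every T cell library. Of the tested genes, 8 of 19 that run on (median log2 fold change -1.10), 6 of 6 that end near the loop (-2.95) and 7 of 8 with no loop (-1.97) were called lower. None of the 6 that end near the loop passed the filter on T cell libraries alone. Among the 8 with no loop Hist2h2be, Hist1h1b and Hist1h2bc did so, and the rest of the 13 that did so run on. The counts and medians are therefore fixed in part by high RNA levels and cannot be compared directly between the sets. Of all genes tested 27.3% were lower. The annotated exons of the sets differ in length, with medians of 1249, 485 and 405 bases. Per kilobase, the median gene of the 3 sets stood at 2.59, 1.08 and 1.14 CPM per kb in 10000 T cells and at 3.42, 3.55 and 1.61 CPM per kb in 5 ng RNA. The part of exon length, of depth and of shared sequence in these differences was not tested.

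**Figure D4:**
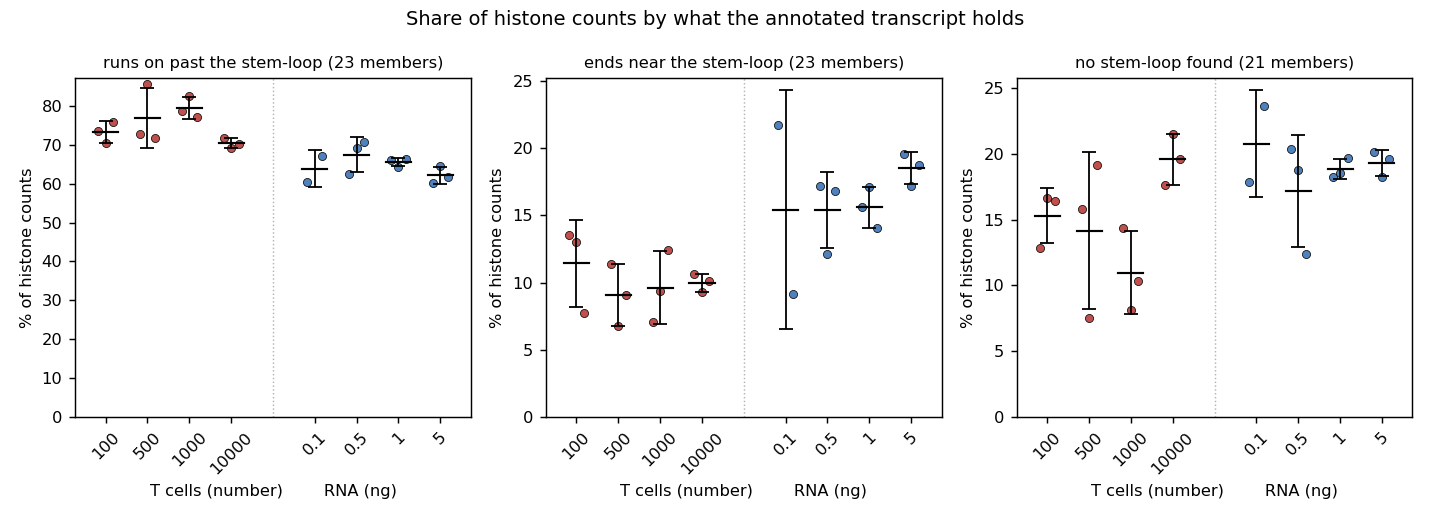
Share of each library's histone counts (%) held by genes whose annotated transcript runs on past the stem-loop, ends near it or holds none (panels), with 1 point per library and the group mean ± SD. The genes that run on hold 70.4% at 10000 T cells and 62.2% at 5 ng RNA, and those that end near the loop hold 10.0% at 10000 T cells and 18.5% at 5 ng RNA.

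Neighbouring genes that share a promoter region were compared next. On chromosome 13, 10 pairs of an H2a and an H2b gene are read away from each other with RefSeq promoter windows that overlap by 220 to 279 bases. Both genes of a pair were tested in 2 of the 10 pairs at 10000 T cells against 5 ng RNA. Hist1h2ak and Hist1h2bn were both lower. Hist1h2ae, whose promoter is shown above, stood at 3.63 ± 2.81 CPM in T cells, against 12.1 ± 1.40 CPM in RNA and was lower (log2 fold change -1.83). Its partner Hist1h2bg stood at 1.95 ± 1.52 CPM in T cells, against 3.24 ± 0.949 CPM in RNA and was not called (log2 fold change -0.83, adjusted p = 0.242, edgeR). The difference between the partners was not tested. Each of these genes passed the filter only through its RNA level, so the calls are fixed in part by it. Of all genes tested 27.3% were lower. The 5 H2b genes with a spliced annotated transcript (including Hist1h2be and Hist1h2bc) summed to 9.77 ± 2.31 CPM in T cells, against 21.3 ± 2.26 CPM in RNA, and the 62 single-exon genes to 133 ± 5.10 CPM in T cells, against 300.9 ± 10.4 CPM in RNA.

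The input comparisons asked whether histone levels change as less material is used. In T cells the summed level was 195 ± 33.0 CPM at 100 cells, 168 ± 16.5 at 500, 136 ± 17.6 at 1000 and 143 ± 3.98 at 10000 (SD, n = 3 each). All 100-cell libraries were above all 10000-cell libraries, by a ratio of means of 1.37. Without replicate 3 at 100 cells, the library with the markers of other cells, the mean was 184 CPM (158 and 211 CPM), and both libraries stayed above all 10000-cell libraries. H1 genes were at 68.2 CPM at 100 cells and 46.0 CPM at 10000 cells, higher in every 100-cell library (ratio 1.48), as they were at 500 cells (ratio 1.49) and at 1000 cells (ratio 1.26). H1 genes averaged 54.0 CPM at 100 cells without replicate 3. H3 genes were also higher in every 100-cell library (ratio 1.63), while H2a, H2b and H4 genes overlapped. Markers of other cells differed between these groups too. B cell markers summed to 2475 ± 73.2 CPM at 500 cells, with Igkc and Ms4a1 called higher, and 1103 ± 32.9 CPM at 1000 cells, against 1234 ± 82.4 CPM at 10000 cells (edgeR; SD, n = 3 each). Erythroid markers summed to 176 ± 11.5 CPM at 500 cells and 238 ± 3.53 CPM at 1000 cells, against 68.8 ± 7.99 CPM at 10000 cells, with 3 and 5 of 8 called higher (edgeR). Of the neutrophil markers 2 of 8 were lower at 500 and at 1000 cells, and of the macrophage markers 3 were lower at 500 and 2 higher at 1000 cells. Their part in the histone sums was not tested.

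No single histone gene passed in these comparisons by edgeR, neither of 15 tested at 100 cells, nor of 12 at 500, nor of 10 at 1000, each against 10000 cells. The background was 0% of 14099 genes, 3.21% of 13674 and 3.27% of 13415. With an unadjusted p under 0.05 (edgeR) there were 1, 2 and 2 histone genes. Of all genes tested, 1686 of 14099, 2273 of 13674 and 2071 of 13415 had such a p, so these counts do not stand out. The histone genes were Hist1h3c at 100 cells, Hist1h1e and Hist1h1c at 500 cells, and Hist1h1c and Hist2h2be at 1000 cells, with Hist2h2be below and the others above the 10000-cell level. Hist1h3c passed the filter only through its 100-cell level, so its direction is fixed in part by that level. DESeq2 called 0 in each. The slope over the log10 of the cell number passed in 0 of 14 tested genes (edgeR, background 0.76% of 15128 genes, 0 with an unadjusted p under 0.05). Of all 15128 genes 1923 had such a p.

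In RNA the smallest input was the lowest, with 227 ± 17.9 CPM at 0.1 ng (n = 2), 298 ± 8.96 at 0.5 ng, 316 ± 16.9 at 1 ng and 322 ± 8.73 at 5 ng (n = 3 each). Both 0.1 ng libraries were below all 5 ng libraries, by a ratio of 0.704. H4 genes had a ratio of 0.513, H2b of 0.667, H2a of 0.775 and H1 of 0.793, each lower in both 0.1 ng libraries, while H3 genes overlapped. Markers of other cells were lower as well at 0.1 ng. B cell markers summed to 26463 CPM at 0.1 ng, against 36203 CPM at 5 ng, erythroid markers to 2784 CPM, against 4503 CPM at 5 ng, neutrophil markers to 3574 CPM, against 5018 CPM at 5 ng, and macrophage markers to 2482 CPM, against 3122 CPM at 5 ng. By edgeR 4, 4, 6 and 4 of the 8 genes of these lists were lower, and their part in the histone sums was not tested. At 0.1 ng against 5 ng, 2 of 41 tested histone genes were lower (edgeR), where 6.55% of 13982 genes tested were lower, so this count does not stand out from the background. The H4 gene Hist1h4f stood at 0.509 and 0.576 CPM at 0.1 ng and 8.92, 7.47 and 8.09 CPM at 5 ng. It had 2 counts at 0.1 ng, a ratio of 5 ng to 0.1 ng of 15.1 with a lower 95% counting bound of 4.11 (adjusted p = 0.0319, edgeR). The H2A gene Hist1h2ac had 0 counts in both 0.1 ng libraries and 5.26, 5.61 and 4.55 CPM at 5 ng, which makes it at least 6.32-fold lower at 0.1 ng (adjusted p = 0.0381, edgeR). Hist1h4f and Hist1h2ac passed the filter only through their 5 ng level, so their calls are fixed in part by it. Both calls were lost without any 1 of the 5 ng replicates, while 21 genes were called without either of the 0.1 ng replicates, where the lone library is assumed to vary like the others. DESeq2 called 7 and a fit of all RNA groups 8, with no share of all genes given beside either.

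At 0.5 ng 0 of 38 tested genes and at 1 ng 0 of 37 differed from 5 ng (edgeR), against 5.09% of 12558 and 0.0238% of 12616 genes tested. With an unadjusted p under 0.05 (edgeR) there were 3 and 1 histone genes, and DESeq2 called 0 in both. Of all genes tested, 2351 of 12558 and 1317 of 12616 had such a p. The slope over log10 ng passed in 0 of 43 genes (edgeR, background 5.68% of 13948 genes, 5 with an unadjusted p under 0.05) and in 2 by DESeq2. Of all 13948 genes 3387 had such a p by edgeR.

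The slopes of the materials were compared directly over all 23 libraries. Of 43 histone genes tested, 1 differed in slope (edgeR), as did 2.36% of 18836 genes, so the count is at the background. This was Hist1h4d, which stood at 15.1, 21.1 and 14.4 CPM at 100 T cells, 5.36, 8.54 and 7.20 at 500, 10.2, 5.16 and 6.39 at 1000 and 7.81, 7.17 and 9.41 at 10000. In RNA it stood at 4.08 and 1.15 CPM at 0.1 ng, 7.82, 16.1 and 9.18 at 0.5 ng, 15.9, 15.2 and 17.2 at 1 ng and 17.1, 15.2 and 14.9 at 5 ng. It was thus highest at the smallest T cell input and lowest at the smallest RNA input. Per 10-fold input its log2 slope was -0.46 in T cells and 1.16 in RNA, neither of which passed alone, and the difference was -1.73 (SE 0.485, adjusted p = 0.0494, edgeR). The call was lost with other scalings, with no filter and without most single libraries, and was kept by DESeq2 (log2 difference -1.64, adjusted p = 0.0121).

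Replicate spread grew as the input fell. Over the 20 genes with the highest mean level, the replicates had a median coefficient of variation of 78.2% for 100 cells, 67.2% at 500, 58.8% at 1000 and 45.4% at 10000. In RNA it was 94.4% at 0.1 ng (2 libraries), 31.2% at 0.5 ng, 24.1% at 1 ng and 14.0% at 5 ng. Genes with no count in any library of a group, 2 at 1000 cells and 1 at 0.1 ng, have no such value and were left out of its median. Of these 20 genes, 7, 5, 3 and 3 had a library with no count at 100, 500, 1000 and 10000 cells, and 6, 1, 0 and 0 at 0.1, 0.5, 1 and 5 ng. At the 3 larger inputs T cell libraries had fewer histone counts, so their single genes are less precisely known than those of the RNA.

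Genes of DNA replication and the cell cycle, whose activity histone supply follows, were examined beside the histone genes. At 10000 T cells against 5 ng RNA, 22 of 24 listed genes were lower and 0 higher (edgeR), with a median log2 fold change of -0.94. They included Mki67, a proliferation marker (log2 fold change -2.22), Top2a, a topoisomerase (-1.71), Mcm6, a subunit of the replicative helicase (-0.60), and Pcna, the replication clamp (-0.18, adjusted p = 0.0363, edgeR). Cdt1 and Gins2 were not called. The count was 15 of 23 at 1000 cells against 1 ng, 15 of 24 at 500 cells against 0.5 ng and 0 of 23 at 100 cells against 0.1 ng. Of all genes tested, 27.3% were lower at the largest inputs, 20% at 1000 cells, 18.1% at 500 cells and 0% at 100 cells. The list summed to 1405 ± 58.6 CPM in 10000 T cells and 2717 ± 6.50 CPM in 5 ng RNA. For every 100 counts of this list there were 10.2 ± 0.533 histone counts in 10000 T cells and 11.9 ± 0.327 in 5 ng RNA. The RNA libraries were thus higher in this measure at the largest inputs, with no overlap. At 1000 cells it ran from 9.72 to 12.5, against 11.5 to 12.5 at 1 ng, and the libraries overlapped. The order was the other way at 500 cells, with 12.4 to 15.3, against 10.7 to 11.6 at 0.5 ng, and at 100 cells, with 11.6 to 15.6, against 8.54 to 9.08 at 0.1 ng, in both without overlap. The part of the S phase genes in the histone difference was not tested.

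The factors that make and handle histone mRNA were mixed. Of 14 listed genes 3 were lower at 10000 T cells against 5 ng RNA (edgeR), a smaller share than the 27.3% of all genes tested, namely Slbp, which binds the stem-loop (log2 fold change -1.04), Eri1, an exonuclease that trims it, and Cpsf2, a subunit of the cleavage complex (-0.89). Another 3 were higher, where 28.7% of all genes tested were higher, namely Ncbp1 of the cap-binding complex, its partner Srrt (0.43) and Upf1, a helicase of mRNA decay (0.46). Of 15 histone chaperones and assembly factors 6 were lower, among them Asf1b (-1.82), which carries H3 and H4, Nap1l1 (-1.33), which carries H2A and H2B, and Chaf1a (-1.23), a subunit of the replication-coupled assembly factor. Another 5 were higher (Cabin1, Daxx, Ipo4, Nap1l4 and Ubn1), among them Daxx, Cabin1 and Ubn1 of the replication-independent H3.3 pathways.

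The replication-independent histone variants, whose mRNAs are polyadenylated (H2afx also makes a stem-loop form), give a comparison that oligo-dT priming treats like other mRNAs. Of 11 listed genes 9 were tested, with 5 lower (H1f0, H2afv, H2afx, H2afz and H3f3a) and 0 higher at 10000 T cells against 5 ng RNA (edgeR). Of all genes tested 27.3% were lower and 28.7% higher. H3f3a and H2afz had log2 fold changes of -0.86 and -0.59, while H3f3b (-0.08) and H2afy (-0.10) were not called. At the same inputs the 8 T cell markers were all higher in T cells (edgeR). The 8 B cell, 8 erythroid, 8 neutrophil and 8 macrophage markers were all lower. The part of these cells in the histone values was not tested.

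**Figure D5:**
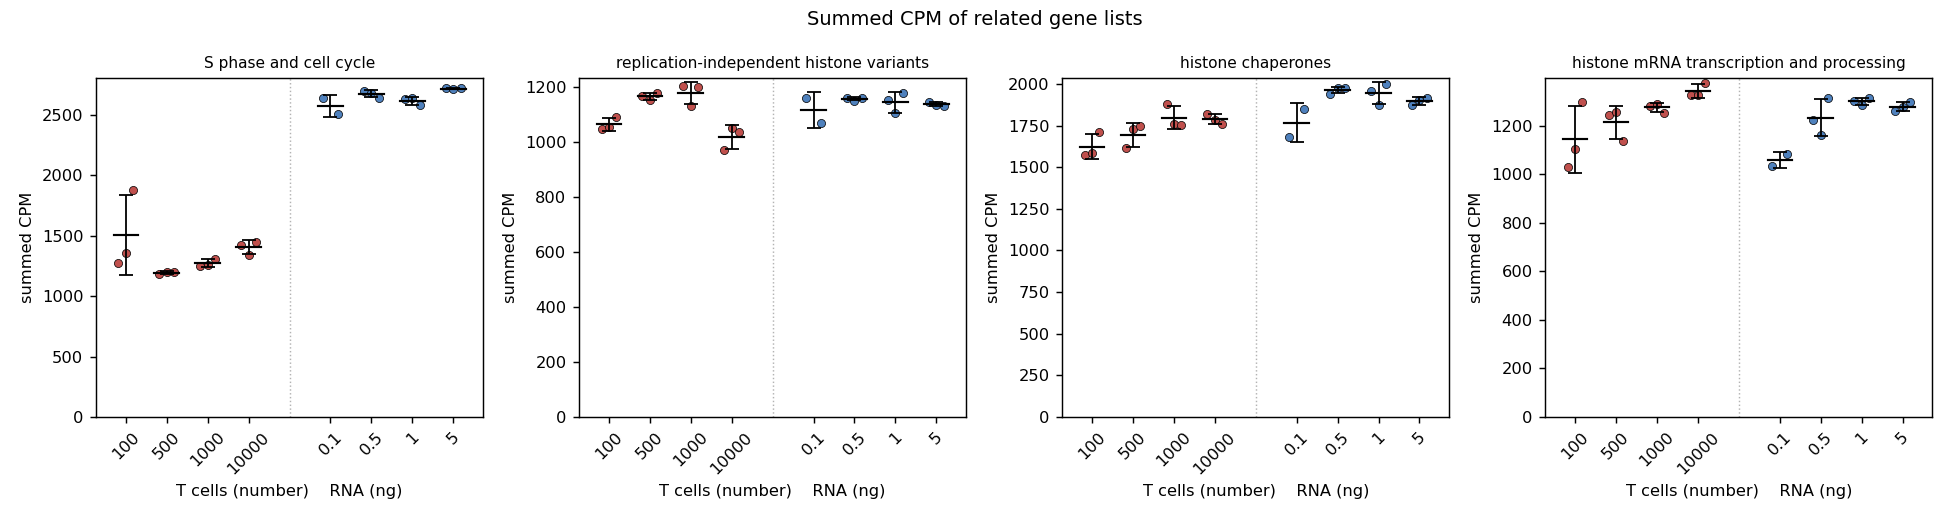
Summed CPM of the S phase and cell cycle genes, the histone mRNA factors, the replication-independent histone variants and the histone chaperones (panels) by group, with 1 point per library and the group mean ± SD. The S phase list lies at means of 1194 to 1503 CPM in T cells, against 2571 to 2717 CPM in RNA.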

How the data were processed

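Per the submitters' processing notes, reads were handled with HISAT2 2.1.0 and featureCounts (no version given) and the build mm8. The values are whole-number counts per gene symbol as deposited by the authors, with no normalization. Even values made up 57.9% to 70.7% of each library's counts above 0, so both mates of a pair may have been counted, and intervals and floors cover counting error only. Totals were 1737067 to 7908638 counts per library, no library was left out, and 0 columns of per-sample values were unused. How reads matching several genes were counted is not given in the sources used here.

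CPM are counts over the library total. Pairs of groups, and slopes over log10 input, were tested with edgeR 4.0.16 in R 4.3.3 (TMM scaling, edgeR's filter on low counts, quasi-likelihood test, libraries of the comparison only), with Benjamini-Hochberg adjustment over all genes tested and a threshold of 0.05. Alternatives were DESeq2 1.42.0, its size factors, library totals, no filter, a replicate block, all groups in 1 fit and each replicate left out. Summed CPM are described without a test. Transcripts and exon lengths came from GENCODE M21 (GRCm38) and promoters from RefSeq (GRCm38.p6), matched by symbol, so no coordinate of the deposited build was used. Tables were made with Python 3.11.15, pandas 2.3.3 and SciPy 1.17.1, figures with matplotlib 3.10.9. The scripts were tested on simulated data.

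Genes were named as the 3 with the highest mean CPM of each class, up to 8 past the threshold per comparison and direction by size of change, and those never counted. Genes outside that rule, such as Hist2h3c2, were named after their values were seen. The members and the gene lists were chosen with earlier results of these data known. Replicate numbers did not pair libraries: in 28 comparisons of libraries with equal numbers, deviations from the group means correlated by -0.0228 to 0.0226, 0 of them above 0.1. Counts of replicate libraries differed by more than sampling noise, the smallest chi-square per degree of freedom being 3.07.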

Additional observations from a re-analysis of the deposited data

Results flagged for a closer look

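The slope of Hist1h4d over input differed between the materials, although neither slope passed alone (T cell slope minus RNA slope of -1.73 in log2 per 10-fold input, adjusted p = 0.0494, edgeR). It was the 1 histone gene of 43 tested for which the difference passed, as it did for 2.36% of all genes, so the count is at the background. It rests in part on 122 counts at 100 cells and 10 counts at 0.1 ng. Without each library in turn the difference ran from -1.92 to -1.33, with adjusted p from 0.0353 to 0.163 (edgeR).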

How the results depend on the processing

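No result reversed direction. Counts of histone genes called that moved by over 1.5 times were as follows, and the cause was not tested. The shares of all genes called are not given for the alternative counts of this section, which thus have no background beside them. With all 8 groups in 1 fit there were 3 for 10000 T cells against 5 ng RNA, 8 for 1000 cells against 1 ng and 4 for 100 cells against 0.1 ng. For 0.1 ng against 5 ng, DESeq2 called 7, all RNA groups in 1 fit 8, no filter 1 and the replicate block 0. The replicate block left 1 at 500 cells against 0.5 ng. No filter gave 1 at 0.5 ng against 5 ng, and DESeq2 2 for the RNA slope. The call for the difference of slopes, whose alternatives were chosen after seeing the data, became 0 under DESeq2 size factors, library totals, no filter and the replicate block. The replicate block changed no other count by over 1.5 times. Leaving out each replicate gave 18 to 26 calls at 10000 cells against 5 ng, 6 to 16 at 1000 against 1 ng, 1 to 4 at 500 against 0.5 ng, 0 to 21 at 0.1 ng against 5 ng, 0 to 1 for the RNA slope and for the difference of slopes, and 0 for the other comparisons. The log2 ratio of summed CPM at 10000 cells to 5 ng was -1.17 and became -1.26 with TMM library sizes (-1.19 to -1.15 without each replicate). That of 0.1 ng to 5 ng was -0.51, and became -0.67 with TMM sizes and -0.65 without Hist1h1c (-0.59 to -0.43 without each replicate). That of 100 to 10000 cells was 0.45 (0.37 to 0.58). With 303 to 2473 histone counts per library, depth limits every statement on single genes, most at 100 cells and 0.1 ng.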
